A study of Homo sapiens with 8 samples.

Results

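The genes described are 32 genes of cholesterol and fatty acid synthesis, taken by symbol from a table of read counts for 54261 genes. All 32 were in the table, and all 32 passed the filter on low counts in both comparisons, which left 21045 genes for hypoxia and 19964 genes for CRC against normal lines. They comprise 5 regulators, 7 genes of the route from acetyl units to farnesyl diphosphate, 11 genes from squalene to cholesterol, 1 sterol transporter and 8 genes of fatty acid synthesis. For 7 of the 32 (SQLE, CYP51A1, MSMO1, SC5D, SCD, FADS1 and FADS2) the encoded enzyme uses molecular oxygen. RNA of human cell lines was sequenced in 8 libraries, and every library is a different line or treatment. The normal group held the intestinal epithelial lines NCM460 and HIEC6, both untreated. The colorectal cancer (CRC) group held the lines DLD1, HCT116 and HCT8, untreated, and the CRC hypoxia group held the same 3 lines under hypoxia, for which the oxygen level and duration are not given in the sources used here. A group is thus made of different lines with 1 library each, so the spread within a group is the spread between lines. The libraries held 45519306 to 57374239 counted reads, so that 3 counts corresponded to 0.0523 to 0.0659 CPM (reads of a gene per 1000000 reads counted).

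Cells make cholesterol from acetyl units through mevalonate and squalene, and several steps after squalene consume molecular oxygen. Transcription of most of these genes is driven by the sterol regulatory element-binding proteins (SREBF1 and SREBF2), which travel with SCAP to the Golgi for activation when sterols are low. INSIG1 and INSIG2 retain that complex in the endoplasmic reticulum when sterols are plentiful, and INSIG1 is itself a target of the pathway. SREBF1 also drives fatty acid synthesis, where FASN builds saturated chains and SCD, another oxygen-using enzyme, introduces a double bond.

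Promoters are shown for the 4 members that passed the test under hypoxia with the cell line as a block, namely INSIG1, INSIG2, STARD4 and SCD. Each line gives the 250 bases before the transcription start from RefSeq (GRCh38.p14), 5′ to 3′ on the strand of the gene. Capitals mark CCAAT (the NF-Y box, a common partner site of sterol-regulated promoters) and ACGTG (a form of the core of the hypoxia response element). Both are marked on either strand, so that ATTGG and CACGT are their reverse forms. In INSIG1 the downstream match is an E-box, CACGTG, in which ACGTG and its reverse form overlap.
INSIG1, chr7:155297628-155297877, plus strand: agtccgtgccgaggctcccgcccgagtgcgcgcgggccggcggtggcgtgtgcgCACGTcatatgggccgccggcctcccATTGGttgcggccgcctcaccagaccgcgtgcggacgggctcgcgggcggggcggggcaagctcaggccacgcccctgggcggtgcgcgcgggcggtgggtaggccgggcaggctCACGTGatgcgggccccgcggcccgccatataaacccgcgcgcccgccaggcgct
INSIG2, chr2:118088221-118088470, plus strand: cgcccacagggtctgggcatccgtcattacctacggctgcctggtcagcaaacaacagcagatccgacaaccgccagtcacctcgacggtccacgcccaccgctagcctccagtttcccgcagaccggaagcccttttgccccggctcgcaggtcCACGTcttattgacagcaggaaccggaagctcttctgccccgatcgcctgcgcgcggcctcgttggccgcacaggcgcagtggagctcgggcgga
STARD4, chr5:111512536-111512785, minus strand: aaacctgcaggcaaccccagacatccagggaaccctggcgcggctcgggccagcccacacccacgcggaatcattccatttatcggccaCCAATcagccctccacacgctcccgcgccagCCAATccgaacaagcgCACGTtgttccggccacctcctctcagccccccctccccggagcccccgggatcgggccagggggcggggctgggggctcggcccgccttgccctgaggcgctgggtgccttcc
SCD, chr10:100346983-100347232, plus strand: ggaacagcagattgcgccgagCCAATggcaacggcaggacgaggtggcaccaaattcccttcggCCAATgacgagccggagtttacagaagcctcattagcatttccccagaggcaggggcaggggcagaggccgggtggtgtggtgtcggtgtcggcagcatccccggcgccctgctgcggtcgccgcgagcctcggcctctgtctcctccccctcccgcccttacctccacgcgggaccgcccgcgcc

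RefSeq promoters were matched for 28 of the 32 members, all but ACAT2, FDFT1, SQLE and FASN. CCAAT occurred on either strand in 18 of the 28, or 64.3%, against 33% of 27305 promoters of the same length. It occurred once in INSIG1, 2 times each in STARD4 and SCD, and not in the INSIG2 window. ACGTG occurred in 6 of the 28 (21.4% against 18.7% of all promoters), with matches in INSIG1, INSIG2 and STARD4 and none in the SCD window. GCGTG, the other form of the hypoxia response core, is not capitalised and was found in 21 of the 28 (75% against 31.9%). It had 3, 1, 2 and 1 matches in INSIG1, INSIG2, STARD4 and SCD. The E-box CACGTG, which contains ACGTG, was in 3 (10.7% against 6.49%), and a sterol regulatory element written as TCACNCCAC was in SREBF2 alone (3.57% against 0.875%). The 27305 promoters were not matched to the members for base content or expression. These matches describe letters in the window and do not show binding.

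Before the comparisons, the labels were set against marker genes. All 16 genes of a hypoxia response list were higher under hypoxia in each line, with median log2 differences of 1.80 in DLD1, 3.70 in HCT116 and 2.74 in HCT8. For BNIP3 the direction rests on very few reads in DLD1 (0 to 0.087 CPM) and HCT8 (0 to 0.022 CPM). HIEC6, labelled as intestinal epithelium, had EPCAM at 0.176 CPM, CDH1 at 3.03 CPM and KRT19 at 0.987 CPM, although KRT8 and KRT18 were at 4290 and 3725 CPM. Over 11 epithelial markers its sum was 8019 CPM, against 4551 to 14263 CPM elsewhere. Nearly all of that HIEC6 sum was KRT8 and KRT18. Of the 11 markers, 3 were at 0 in HIEC6, as in NCM460 and in HCT116 under hypoxia. At or under 3 counts were 5 in HIEC6, 4 in untreated HCT116 and 3 in NCM460. Over 12 mesenchymal markers the HIEC6 sum was 1414 CPM, against 114 CPM in NCM460. Most of it was VIM, at 1223 CPM in HIEC6 and at no more than 20.6 CPM in the other libraries. Against NCM460, COL1A1, FN1, PDGFRB, LUM and ZEB1 were also higher in HIEC6. COL1A2, COL3A1, COL6A3, SPARC, THY1 and DCN were lower. The sum of 12 mesenchymal markers was also higher under hypoxia in each line. It went from 14.1 to 105 CPM in DLD1, from 49.6 to 187.5 CPM in HCT116 and from 18.1 to 26.7 CPM in HCT8. Every marker was higher in DLD1 and HCT116, but not in HCT8. There COL1A1 (7.996 to 14.19 CPM), PDGFRB (3.665 to 8.458 CPM), FN1 and LUM were higher. VIM, COL1A2, COL3A1, COL6A3, SPARC, THY1, DCN and ZEB1 were lower. The sum in untreated NCM460 (114 CPM) was above that of DLD1 under hypoxia. Neither DLD1 nor HCT8 untreated had all 12 detected (2 and 1 at 0), and the part of these markers in the results below was not tested.

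Whether hypoxia altered the pathway was asked by setting the 3 hypoxia libraries against the 3 untreated CRC libraries. The regulators INSIG1 and INSIG2, the sterol carrier STARD4 and the desaturase SCD rose when each line was compared with itself, and no member was called lower. Without the line as a block, edgeR's quasi-likelihood test called 0 of the 32 members and 0% of the 21045 genes, and every member's adjusted p was 0.9999. At an unadjusted p under 0.05 that fit had 5 members and 607 genes. With the line as a replicate block, 4 members were higher at an adjusted p under 0.05, where 0.741% of all genes tested were higher, and 0 members were lower, where 0.209% of all genes were lower. At an unadjusted p under 0.05 the blocked fit had 14 members, all of them higher, among 3884 genes, of which 2079 were higher. DESeq2 with the same block called 7 members higher against a background of 4.54%, adding IDI1 (adjusted p = 0.0198), SC5D (adjusted p = 0.00925) and DHCR7 (adjusted p = 0.0257). In bulk RNA, fewer cells of a type and less RNA per cell cannot be told apart.

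INSIG1, the sterol-dependent anchor of SCAP, is at chromosome 7, 155089486 to 155101945 (GRCh37). It was at 107 CPM in DLD1, 68.7 CPM in HCT116 and 205 CPM in HCT8 untreated, and at 342, 242 and 634 CPM under hypoxia in the same lines. All hypoxia values lay above all untreated values, and the normal lines NCM460 and HIEC6, at 144 and 108 CPM, lay within the untreated range. The untreated mean was 127 ± 70.3 CPM and the hypoxia mean 406 ± 204 CPM (SD, n = 3 lines each). On TMM-scaled CPM it was 3.20-fold higher in DLD1, 4.45-fold in HCT116 and 3.06-fold in HCT8. The blocked log2 fold change was 1.84 (SE 0.19, edgeR adjusted p = 0.00754), against 1.78 (SE 0.44) without the block.

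INSIG2, the paralog that also retains SCAP, is at chromosome 2, 118846028 to 118868573 (GRCh37), and was far lower per kilobase of exon (4.43 against 34.8 CPM per kilobase for INSIG1, mean of the untreated CRC lines). It stood at 14.9 CPM in DLD1, 14.2 CPM in HCT116 and 23.3 CPM in HCT8 untreated, and at 39.0, 98.2 and 90.6 CPM under hypoxia. The groups did not overlap, and the hypoxia library of HCT116, from the CRC line with the lowest untreated value, was the highest of all 8. On TMM-scaled CPM, DLD1 had a fold of 2.62, HCT116 of 8.73 and HCT8 of 3.85. The blocked log2 fold change was 2.17 (SE 0.32, edgeR adjusted p = 0.0283), the largest of the 32, and it was the 1 member that DESeq2 called without the block (adjusted p = 0.0117).

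STARD4 carries sterol between membranes and is at chromosome 5, 110831731 to 110848288 (GRCh37), on the minus strand. It was at 48.9, 42.5 and 65.7 CPM in untreated DLD1, HCT116 and HCT8, and at 88.6, 112 and 224 CPM under hypoxia. Again the groups did not overlap, although NCM460 without treatment, at 81.4 CPM, came close to DLD1 under hypoxia. Its log2 fold change with the block was 1.48 (SE 0.22, edgeR adjusted p = 0.0311). On TMM-scaled CPM it was 1.81-fold higher in DLD1, 3.33-fold in HCT116 and 3.37-fold in HCT8. Counted by column total, INSIG1, INSIG2 and STARD4 were the 3 members, or 9.38%, whose hypoxia values all exceeded the untreated values, where 3.06% of all genes tested did so. On the TMM scale 6 members were above without overlap, SREBF1, SC5D and DHCR7 in addition, where 3.97% of all genes were, and PMVK was the 1 member below without overlap, where 5.37% of all genes were.

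SCD, which makes oleate from stearate with molecular oxygen, is at chromosome 10, 102106990 to 102124583 (GRCh37). Untreated it was at 941 CPM in DLD1, 2216 CPM in HCT116 and 867 CPM in HCT8, and under hypoxia at 2021, 3575 and 3748 CPM. It was higher in each line (2.15-fold, 2.04-fold and 4.28-fold on the TMM scale), yet the groups overlapped, since untreated HCT116 exceeded DLD1 under hypoxia. NCM460, untreated, was at 2997 CPM and HIEC6 at 737 CPM. The blocked log2 fold change was 1.43 (SE 0.25, edgeR adjusted p = 0.0449), and SCD lost the call when 10 counts were required in every library or when DLD1 was left out.

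**Figure D1:**
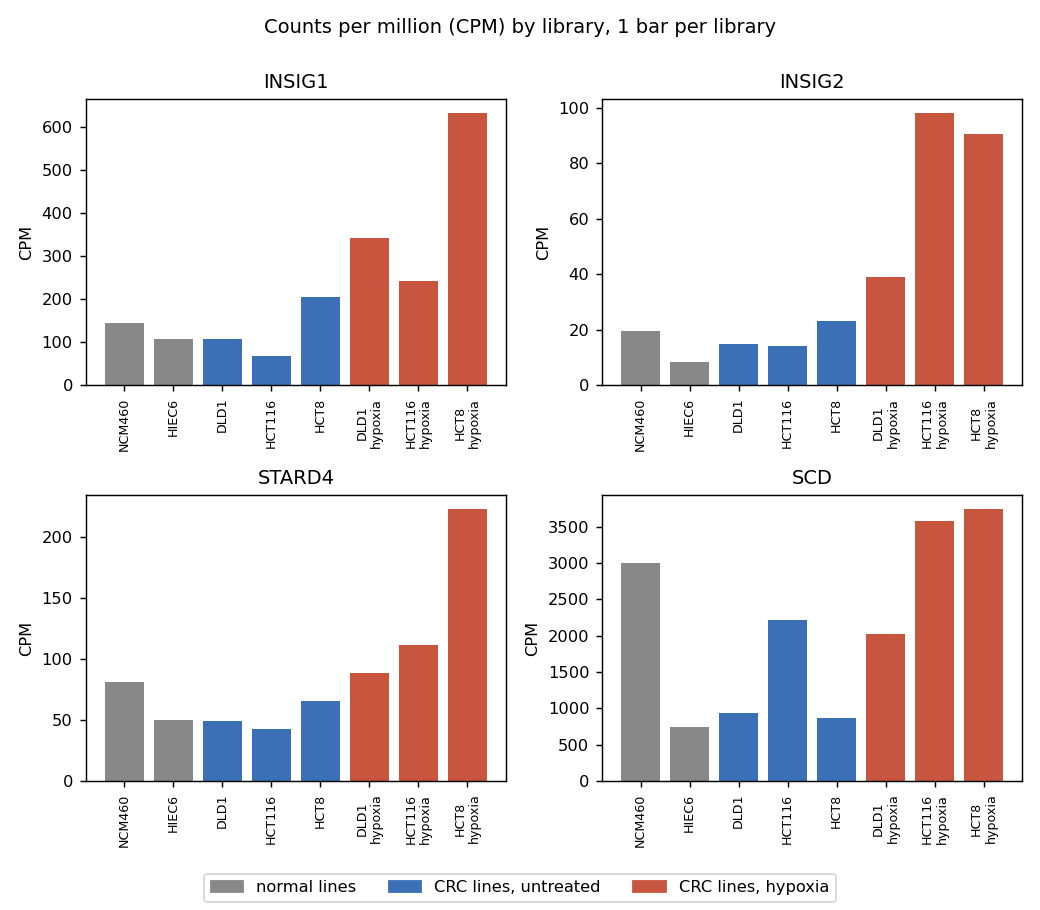
CPM by column total in each of the 8 libraries for INSIG1, INSIG2, STARD4 and SCD, 1 bar per library with no error bar. Hypoxia bars exceed the bar of the same line untreated in all 3 lines for each gene, and for SCD the untreated HCT116 bar (2216 CPM) exceeds that of DLD1 under hypoxia (2021 CPM).

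These calls rested on which lines were in the blocked fit. Without the DLD1 pair 3 members were called higher (INSIG1, INSIG2 and STARD4) against a background of 0.894%, and without the HCT8 pair 0 members were, where 6 genes in all, or 0.0304%, were higher. Without the HCT116 pair 9 were called against a background of 2.36%, and these were SREBF1, INSIG1, INSIG2, MVK, IDI1, LSS, STARD4, SCD and ACSS2. The directions of the 4 members were the same in each of these fits. The sample descriptions of the hypoxia libraries and of the untreated CRC libraries carry different codes, whose meaning the labels do not state, and what these codes mark cannot be told apart from treatment.

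The other regulators did not pass the test. SREBF1, the factor of fatty acid and sterol genes, was at 182, 217 and 254 CPM in untreated DLD1, HCT116 and HCT8, and at 266, 192 and 793 CPM under hypoxia. HCT8 under hypoxia alone stood far from the others, and in HCT116 the direction depended on the scale, with a TMM-scaled fold of 1.12 but a lower value by column total. The blocked log2 fold change was 0.80 (SE 0.28, edgeR adjusted p = 0.186). SREBF2, the main factor of sterol synthesis, ranged from 293 to 575 CPM untreated and from 327 to 726 CPM under hypoxia, with a blocked log2 fold change of 0.41 (SE 0.18, edgeR adjusted p = 0.275). SCAP, which escorts both, ranged from 114 to 186 CPM untreated and from 71.8 to 124 CPM under hypoxia (blocked log2 fold change -0.28, SE 0.19, edgeR adjusted p = 0.481).

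The oxygen-using enzymes other than SCD did not pass edgeR's test. On the TMM scale MSMO1 and SC5D were higher and FADS1 lower in all 3 lines, while SQLE, CYP51A1 and FADS2 differed in direction by line. SQLE, which epoxidizes squalene, went from 127 to 210 CPM in DLD1, from 93.5 to 105 CPM in HCT116 and from 172 to 150 CPM in HCT8 (blocked log2 fold change 0.37, SE 0.22, edgeR adjusted p = 0.417). CYP51A1, the lanosterol demethylase, went from 203 to 260 CPM, from 139 to 121 CPM and from 201 to 155 CPM in the same order of lines. Its blocked log2 fold change was 0.06 (SE 0.20, edgeR adjusted p = 0.899), and most of its annotated exon sequence (68.2%) is also listed for an overlapping gene on the same strand. MSMO1, the methylsterol oxidase, was higher in all 3 lines, at 157 then 213 CPM in DLD1, 68.2 then 132 CPM in HCT116 and 142 then 164 CPM in HCT8, without passing the test (0.66, SE 0.23, edgeR adjusted p = 0.191). SC5D, which places the ring double bond near the end of the pathway, was also higher in all 3 (66.9 to 112, 40.6 to 51.6 and 74.0 to 99.98 CPM), with 0.64 (SE 0.17, edgeR adjusted p = 0.119).

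The desaturases of polyunsaturated fatty acids, FADS1 and FADS2, did not pass the test. FADS1 went from 6.68 to 6.38 CPM in DLD1, from 107 to 64.4 CPM in HCT116 and from 38.2 to 34.1 CPM in HCT8, a blocked log2 fold change of -0.19 (SE 0.18, edgeR adjusted p = 0.625). FADS2 lay between 9.57 and 17.2 CPM in all 6 CRC libraries, with a blocked log2 fold change of 0.07 (SE 0.23, edgeR adjusted p = 0.895). The spread of FADS1 between lines was much wider than its difference within any line. Over the 7 oxygen-using members the median log2 fold change was 0.37, beside 0.44 over the other 25 members and 0.06 over all genes tested, and 1 of the 7 (SCD) was called with the block. By line, on TMM-scaled CPM, their median log2 difference was 0.44 in DLD1 with 6 of 7 higher, 0.50 in HCT116 with 6 of 7 higher, and -0.16 in HCT8 with 3 of 7 higher, where 48.7%, 47.7% and 48.8% of all genes tested were higher. By column total HCT116 had a median of 0.17 with 4 of 7 higher, where 33.6% of all genes tested were. CYP51A1, FADS1 and FADS2 were lower there on that scale.

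**Figure D2:**
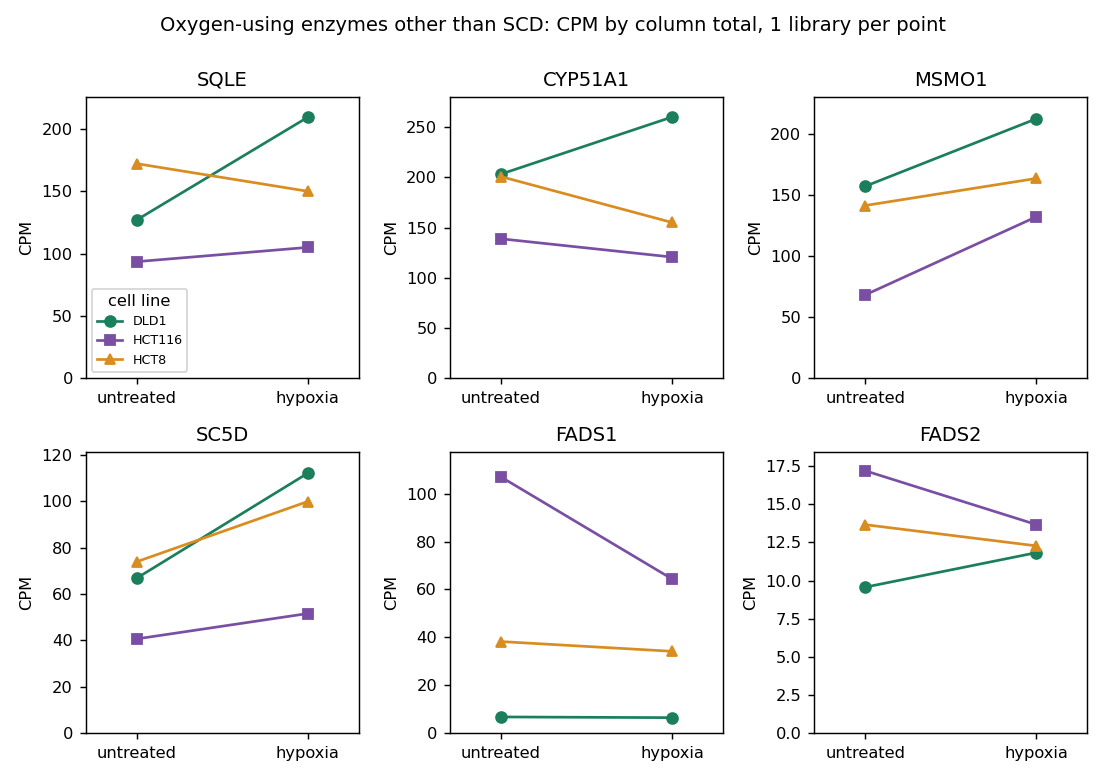
CPM by column total of the oxygen-using enzymes other than SCD, untreated and under hypoxia, with 1 point per library and a line joining the libraries of 1 cell line. MSMO1 and SC5D are higher in each line, SQLE and CYP51A1 are higher in DLD1 (210 and 260 CPM) and lower in HCT8 (150 and 155 CPM), and FADS1 is separated by line more than by treatment.

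The remaining enzymes were described by line, with no test of a single line possible. On TMM-scaled CPM, 29 of the 32 members were higher under hypoxia in DLD1, 18 in HCT116 and 23 in HCT8, where 48.7%, 47.7% and 48.8% of all genes tested were higher. The median log2 difference of the members was 0.63, 0.06 and 0.34 in these lines. The count in HCT116 depends on the scale, since by column total 9 of 32 were higher there, or 28.1% beside 33.6% of all genes. The members' median was then -0.26 and that of all genes -0.22. The TMM factor of that hypoxia library was 0.795 against 1.004 for the untreated one, a shift of 0.34 on the log2 scale, while the other lines moved by at most 0.02. On the TMM scale 15 members were higher in all 3 lines, or 46.9% beside 21.0% of all genes, and PMVK and FADS1 were lower in all 3. By column total 8 of the 32 members were higher in all 3, as were 3417 of the 21045 genes tested.

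In the mevalonate route the median log2 fold change was 0.54. HMGCS1, which makes hydroxymethylglutaryl-CoA, went from 188 to 430 CPM in DLD1, from 49.9 to 47.5 CPM in HCT116 and from 153 to 201 CPM in HCT8. IDI1, the isopentenyl diphosphate isomerase, went from 47.3 to 85.6 CPM, from 33.0 to 31.5 CPM and from 68.6 to 117 CPM in the same order. DLD1 and HCT8 thus shared the higher values, which HCT116 lacked on this scale. On the TMM scale HMGCS1 and IDI1 were higher in HCT116 as well (1.203-fold and 1.208-fold). PMVK, the phosphomevalonate kinase, was the exception, at 19.8 then 18.6 CPM in DLD1, 23.2 then 13.6 CPM in HCT116 and 36.2 then 20.9 CPM in HCT8. ACAT2, the thiolase, was at 119 then 180 CPM, 25.7 then 18.1 CPM and 88.5 then 74.3 CPM. MVK, MVD and FDPS went from 26.8 to 51.6, from 31.5 to 45.8 and from 179 to 267 CPM in DLD1. In HCT116 they went from 16.56 to 13.95, from 49.8 to 45.3 and from 96.9 to 52.7 CPM. On the TMM scale MVK and MVD were higher in HCT116 (1.065-fold and 1.15-fold) and FDPS lower. In HCT8 the same genes went from 34.2 to 58.0, from 43.4 to 77.5 and from 207 to 254 CPM. No gene of this route passed edgeR's test.

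From squalene on, the median log2 fold change was 0.37 over 11 genes. FDFT1, the squalene synthase, was 1.59-fold, 1.23-fold and 1.29-fold higher on the TMM scale in DLD1, HCT116 and HCT8, and DHCR7, which completes the Kandutsch-Russell branch, 1.70-fold, 1.55-fold and 1.23-fold. Both were thus higher in all 3 lines, but neither passed the edgeR test with the block. LSS, the lanosterol synthase, went from 22.8 to 41.3 CPM in DLD1, from 13.8 to 10.5 CPM in HCT116 and from 57.2 to 105 CPM in HCT8. TM7SF2, a sterol reductase, parted by line, at 44.3 then 72.1 CPM in DLD1, 44.5 then 13.9 CPM in HCT116 and 118 then 96.3 CPM in HCT8. On the TMM scale NSDHL, HSD17B7 and EBP were higher in DLD1 (1.69-fold, 1.39-fold and 1.59-fold) and within 0.83-fold to 1.23-fold in the other lines. For HSD17B7, whose lowest value was 6.81 CPM, a pseudogene copy reached 6.79 CPM, so its level is uncertain.

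In fatty acid synthesis the median was 0.18 and members differed in direction. FASN, the synthase, went from 1419 to 2004 CPM in DLD1, from 2374 to 1502 CPM in HCT116 and from 1579 to 3006 CPM in HCT8. ACSS2, which makes acetyl-CoA from acetate, went from 51.9 to 131 CPM, from 94.8 to 52.6 CPM and from 71.1 to 204 CPM. That was 2.53-fold and 2.84-fold in DLD1 and HCT8 against 0.70-fold in HCT116 on the TMM scale. ACACA, the acetyl-CoA carboxylase, was at 0.36-fold in HCT116 on the TMM scale (30.2 to 8.52 CPM by column total), the lowest ratio of any member. ACLY, the citrate lyase, lay between 347 and 719 CPM over the CRC libraries, and ELOVL6, which lengthens palmitate, went from 14.6 to 7.87 CPM in HCT8. None of these 5 passed the test.

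**Figure D3:**
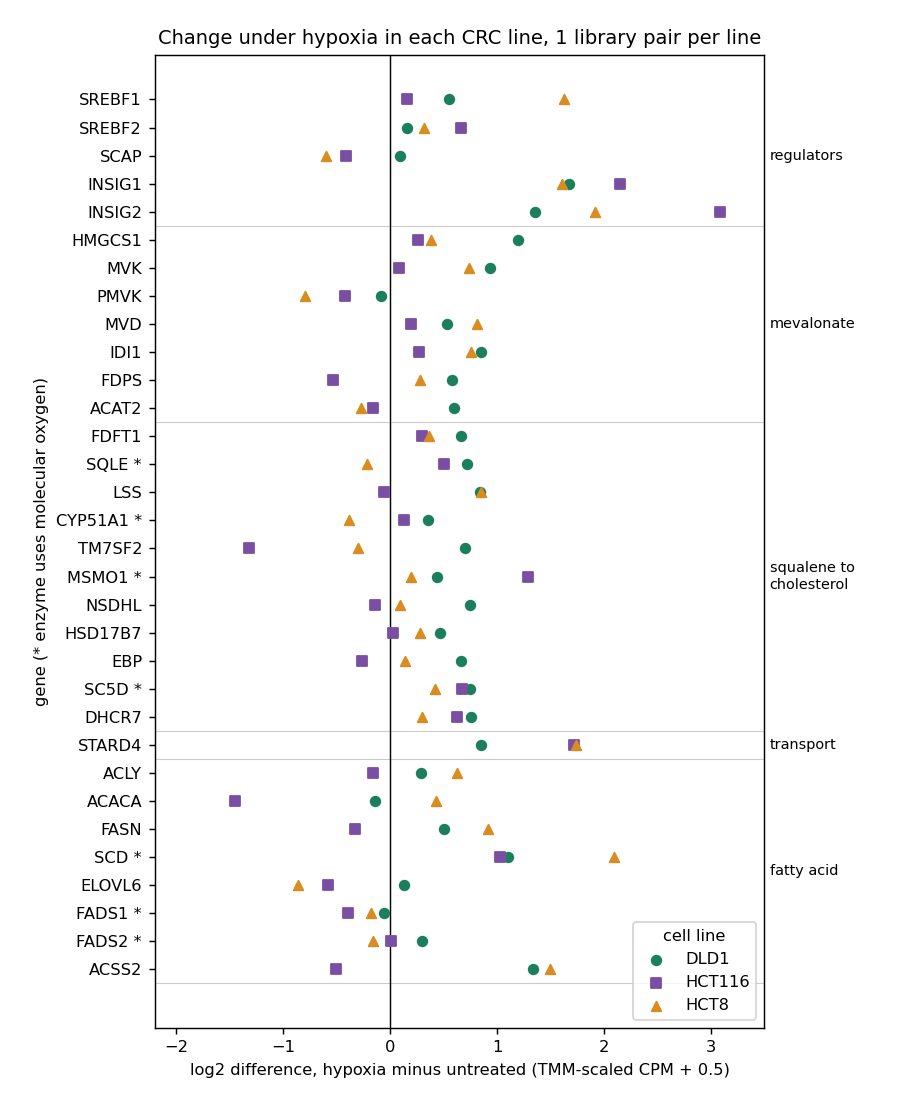
Log2 difference of TMM-scaled CPM (with 0.5 added) between hypoxia and untreated libraries for the 32 members, 1 symbol per cell line, ordered by role, with an asterisk for enzymes that use oxygen. INSIG1, INSIG2, STARD4 and SCD lie to the right of 0 in each line, and DLD1 lies right of 0 for 29 of 32 genes.

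The differences by line were related across the members, with no value over all genes to set beside them. Pearson's r over the 32 members was 0.58 between DLD1 and HCT116, 0.68 between DLD1 and HCT8 and 0.58 between HCT116 and HCT8, as a description over genes, which are not independent. Across the 8 libraries, the member most like INSIG1 was STARD4 (r = 0.92, log2 CPM), which was also the one most like INSIG2 (r = 0.89), and the one most like SCD was MVD (r = 0.84). All 8 libraries enter these values, so line, treatment and depth are shared by the points.

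Levels between genes were compared per kilobase of exon, as means of the untreated CRC lines. SCD (256 CPM per kilobase), FASN (192) and ACLY (92.3) led, ahead of FDFT1 (52.5) and SREBF2 (52.0). MVK (2.87), ACACA (1.88) and FADS2 (1.28) were lowest. The genes at the top thus belong to fatty acid synthesis, while its desaturase FADS2 and carboxylase ACACA were the 2 at the bottom. The neighbours FDFT1 and SREBF2 were not separated, since their lines ranged from 36.0 to 62.8 and from 36.4 to 71.3.

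The study's other comparison set the 3 CRC lines against the 2 normal lines, untreated. Of the normal libraries, NCM460 was close to untreated HCT116, a CRC library, over all genes (median absolute log2 difference 0.25). No member was called, and 0% of the 19964 genes tested were (edgeR), with 542 genes and 1 member, FADS2, at an unadjusted p under 0.05. DESeq2 called 143 genes and 0 members. The median log2 fold change of the members was -0.28, with 24 of 32 lower in CRC, where 50.3% of all genes were lower. The sign turned on NCM460, without which the median was 0.15. The median over all genes was 0.19 in that fit, so the members' median was still the lower of these. The 4 members with at least a 1-unit log2 difference, ACAT2, TM7SF2, FADS1 and FADS2, all had HIEC6 apart from every other library.

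ACAT2, the cytosolic acetoacetyl-CoA thiolase at the head of the sterol route, is at chromosome 6, 160183077 to 160200144 (GRCh37). It was at 39.0 CPM in NCM460 and 0.582 CPM in HIEC6 (33 counts), against 119, 25.7 and 88.5 CPM in untreated DLD1, HCT116 and HCT8. HIEC6 was the lowest of the 8 libraries, although TCP1, which shares 454 exon bases with ACAT2 on the opposite strand, reached 607 CPM over the libraries. The log2 fold change was 1.85 (SE 1.60, edgeR adjusted p = 0.999), and it was 0.88 without HIEC6. TM7SF2 (chromosome 11, 64879317 to 64883856, GRCh37) was at 38.1 CPM in NCM460 and 1.64 CPM in HIEC6 (93 counts), against 44.3, 44.5 and 118 CPM. Its log2 fold change was 1.64 (SE 1.26, edgeR adjusted p = 0.999) and 0.71 without HIEC6.

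FADS1 and FADS2, neighbours on chromosome 11 (61567099 to 61596790 and 61560452 to 61634826, GRCh37) that share 490 exon bases on opposite strands, went the other way. FADS1 was at 375 CPM in HIEC6, 98.2 CPM in NCM460 and 6.68, 107 and 38.2 CPM in untreated DLD1, HCT116 and HCT8. FADS2 was at 87.0 CPM in HIEC6, 16.3 CPM in NCM460 and 9.57, 17.2 and 13.7 CPM in the same CRC lines. HIEC6 was the highest library for both. The log2 fold changes were -2.43 (SE 1.21) and -2.18 (SE 0.79), both with an edgeR adjusted p of 0.999, and without HIEC6 they were -1.03 and -0.37. HIEC6 was the lowest of the 8 libraries for 13 members, or 40.6% against 31.4% of all genes tested, and the highest for 6, or 18.8% against 17.4%.

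**Figure D4:**
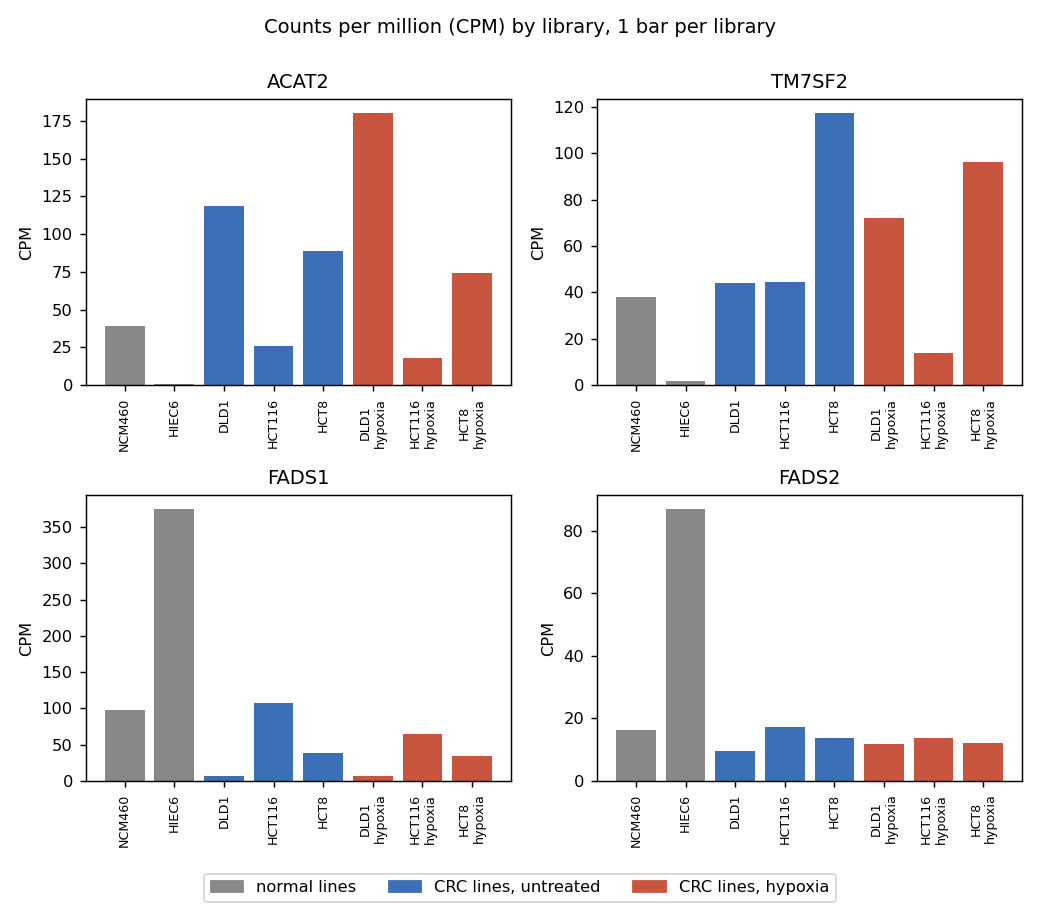
CPM by column total in each of the 8 libraries for ACAT2, TM7SF2, FADS1 and FADS2, 1 bar per library with no error bar. HIEC6 is lowest for ACAT2 (0.582 CPM) and TM7SF2 (1.64 CPM) and highest for FADS1 (375 CPM) and FADS2 (87.0 CPM).

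NCM460, the other normal line, was above untreated HCT116 for most of the members, a pair chosen because these libraries are close over all genes. The median absolute log2 difference between the libraries labelled NCM460 and untreated HCT116 was 0.25 over the 19964 genes and 0.47 over the members. BNIP3 was at 17.93 and 18.55 CPM in these libraries and at 0 CPM in untreated DLD1 and HCT8. CDH17 was at 0.081 and 0.077 CPM, against 143.5 and 134 CPM in DLD1 and HCT8. Other genes differed, such as NDRG1 at 608 and 150 CPM. Why the libraries labelled NCM460 and HCT116 are close was not tested. Of the 32 members 26 were higher in NCM460, or 81.2% against 49.7% of all genes, and 5 were more than 1 log2 unit higher, or 15.6% against 2.16%. These 5 were MSMO1 (222 against 68.2 CPM, a log2 difference of 1.72), HMGCS1 (125 against 49.9 CPM, 1.34), FDFT1 (396 against 183 CPM, 1.14), INSIG1 (144 against 68.7 CPM, 1.09) and SQLE (190 against 93.5 CPM, 1.04). FASN was at 4321 CPM in NCM460, the highest of all libraries, against 2374 CPM. Each side is 1 library, so no test was possible, and the description of NCM460 carries a second code, of unstated meaning, that untreated HCT116 lacks.

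**Figure D5:**
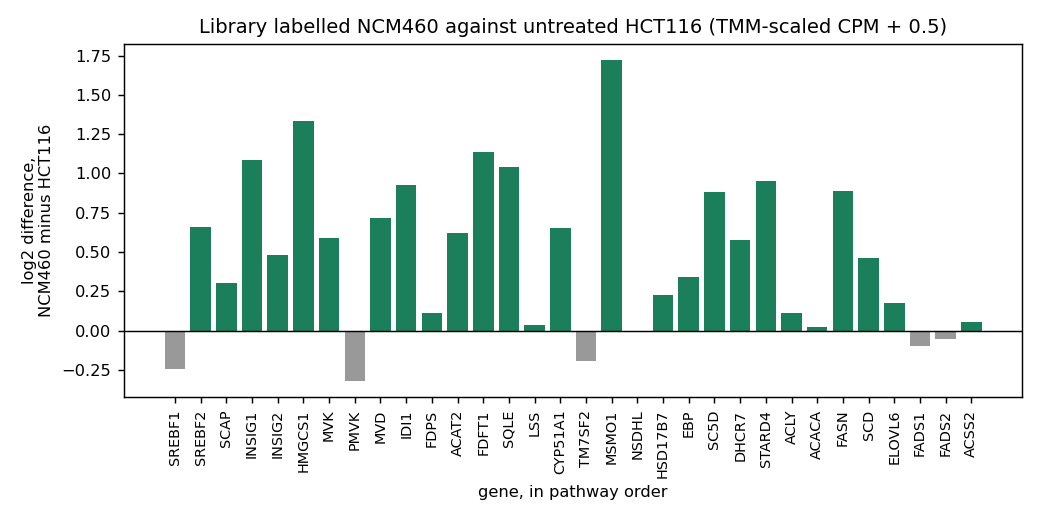
Log2 difference of TMM-scaled CPM (with 0.5 added), the library labelled NCM460 minus untreated HCT116, for the 32 members in pathway order, 1 bar per gene with 1 library on each side. Bars above 0 (26 of 32) are green, and MSMO1 is the tallest at 1.72.

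A further 46 genes of sterol and fatty acid metabolism were examined beside the members, of which 43 passed the filter. None was called under hypoxia by edgeR with or without the block. With it 12 had an unadjusted p under 0.05, as did 3884 of all 21045 genes tested. DESeq2 with the block called 4 higher (ABCG1, SLC25A1, OXSM and ACSL4), where 4.54% of all genes were. It called 1 lower, where 711 of the 21045 genes were. On the unblocked log2 scale 24 of the 43 had a fold change above 0, beside 54.3% of all genes. The median was 0.06 both over the 43 and over all genes. ABCG1, which exports cholesterol, was at 0.781, 6.07 and 1.86 CPM in untreated DLD1, HCT116 and HCT8 and at 1.31, 16.8 and 15.2 CPM under hypoxia (blocked log2 fold change 1.93, SE 0.44, edgeR adjusted p = 0.0874, DESeq2 adjusted p = 0.00156).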

How the data were processed

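RNA was sequenced after removal of ribosomal RNA in 8 cell line libraries. The authors deposited read counts per gene, not normalized, for 54261 genes. The submitters' processing notes name HISAT2 2.0.4 and GRCh38, whereas the study's methods name GRCh37, and the counter, its use of strand and its treatment of shared reads are not given in the sources used here. The members and gene lists were chosen with earlier results of these data known. Counts of genes with at least 10 in at least 2 libraries were tested with edgeR 4.0.16 (quasi-likelihood, TMM, R 4.3.3), with Benjamini-Hochberg adjustment over all genes tested and a threshold of 0.05. The main hypoxia fit has no block. DLD1, HCT116 and HCT8 occur untreated and under hypoxia, so the replicate number marks the same line: deviations from group means correlated at 0.836, 0.857 and 0.82 within lines and from -0.611 to -0.0599 between them. The paired fit with this replicate block is therefore printed beside the main one. CPM used the column total, and differences by line used log2(TMM-scaled CPM + 0.5). DESeq2 1.42.0, limma 3.58.1, other filters and leaving out libraries were alternatives. Genes given statistics were the oxygen-using members, the regulators, the members called and those with an absolute log2 fold change of at least 1. Of the 46 further genes, ABCG1 was given for the size of its change, SLC25A1, OXSM and ACSL4 were named after their values were seen, and 1 further result is not reported here. Positions are from GENCODE 44 on GRCh37 and promoters from RefSeq on GRCh38.p14. The libraries of a group are different lines, so p-values of the fits without a block measure the spread between lines. Those of the blocked hypoxia fits measure how the difference under hypoxia varied between lines. Neither measures the spread between cultures of 1 line.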

Additional observations from a re-analysis of the deposited data

Results flagged for a closer look

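For 3 members, 2 lines moved in opposite directions under hypoxia by at least 0.5 on the log2 scale of TMM-scaled CPM. FDPS, the farnesyl diphosphate synthase, was higher in DLD1 and lower in HCT116, a difference of 1.12 between the lines. TM7SF2 was also higher in DLD1 and lower in HCT116, a difference of 2.02. ACSS2 was higher in DLD1 and in HCT8 and lower in HCT116, so that DLD1 minus HCT116 was 1.84 and HCT116 minus HCT8 was -2.01. With 1 library per line and treatment these differences between lines were not tested, and values by column total shift HCT116 further down by 0.34.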

How the results depend on the processing

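Hypoxia calls depended on the paired fit and on the tool. Against 0 genes and 0 members in the fit without a block, DESeq2 called 55 genes and 1 member. The replicate block gave 200 genes and 4 members, with DESeq2 1666 and 7, with upper-quartile normalization 215 and 4, and with at least 10 counts in every library 165 and 3. Leaving out 1 library or 1 line gave 0 to 738 genes and 0 to 9 members. For CRC against normal lines DESeq2 called 143 genes (82 higher, 61 lower) and the other alternatives 0, with 0 members in each. The replicate numbers of normal and CRC lines are names only, and a fit with them as a block called no member. The members' median log2 fold change under hypoxia stayed above 0 in all 19 alternatives (0.25 to 0.66), as did that of the oxygen-using members (0.17 to 0.64). The CRC against normal median ran from -0.39 to 0.15 when a library was left out. It turned to 0.15 without NCM460, where the median of all genes was 0.19. By column total the HCT116 median turned to -0.26, where that of all genes was -0.22. Single genes near 0 also turned when libraries were left out, CYP51A1 between -0.23 and 0.27, FADS1 between -1.45 and 1.02 and FADS2 between -0.21 and 0.34. The causes were not tested. All members had at least 33 counts in each library.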
